A study of Arabidopsis thaliana with 24 samples.

Results

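The genes described here encode proteins of the cytosolic small (40S) ribosomal subunit, at 60 loci in 22 families. A locus was used where a feature on the array carried it as the only gene in the platform's annotation, and its brightest feature was taken. This gave 43 loci from 18 families, each with exactly 1 feature, of 28583 features in all. The other 17 loci were not analysed here. They are all those of the S5 (AT2G37270, AT3G11940), S6 (AT4G31700, AT5G10360), S15a (AT1G07770, AT3G46040, AT5G59850) and S18 families (AT1G22780, AT1G34030, AT4G09800), and of other families AT5G41520 (S10), AT3G48930 and AT5G23740 (S11), AT4G00100 (S13), AT1G04270 (S15), and AT3G45030 and AT5G62300 (S20). Families are named by their ribosomal protein (S16 for RPS16), and single genes by locus. Members of a family can be so alike that a probe for 1 gene also binds the transcript of another. The probe sequences were not used here, so the share of each paralog in a signal is uncertain.

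The cytosolic small ribosomal subunit binds mRNA, reads its codons and, together with the large subunit, makes the proteins encoded by nuclear genes. In Arabidopsis each of its proteins is encoded by a small family of near-identical genes, and the transcripts of these families usually rise and fall together with growth. The protein kinase TOR promotes their expression, and its kinase substrate S6K phosphorylates the subunit's S6 protein, whose genes are among those not analysed here. Sulfur limitation, which limits the supply of cysteine and methionine, is known to lower TOR activity in Arabidopsis.

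The samples were roots and rosettes of the mutant rpt2-3a and of Col-0, the common laboratory accession. The mutant is named after RPT2, an ATPase at the base of the proteasome's cap, and the labels say nothing more of the allele. Plants were raised hydroponically for 5 weeks on complete nutrients in days of 8 h light and 16 h dark. They were then moved to sulfur-deficient nutrients for 5 days or kept on normal sulfur. The 8 groups were roots of rpt2-3a under deficiency, rpt2-3a at normal supply, Col-0 under deficiency and Col-0 at normal supply, and rosettes in the same 4 conditions. Each group had 3 biological replicates, 1 Affymetrix array each. The values are read as log2 expression values, with the base assumed. They can be compared between arrays for 1 feature but not between features.

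The median of all features lay between 4.47 and 4.55 on root arrays and between 4.03 and 4.14 on rosette arrays, so differences between organs depend on how arrays are scaled. Arrays of a group correlated with r between 0.989 and 0.994. RCA, the Rubisco activase, read 3.37 to 4.55 in roots and 10.79 to 11.12 in rosettes, and EXPA7, a root-hair expansin, read 7.31 to 7.89 in roots and 1.81 to 2.62 in rosettes. RPT2 was not analysed here, so the genotype labels were not checked by the mutated gene. Of the 43 genes, 32 lay above the array median on all 24 arrays, while AT1G58380 of the S2 family, AT2G09990 (S16), AT4G30800 (S11), AT5G09490 and AT5G09500 (S15) and AT5G59240 (S8) lay under it on all 24. The median SD of a member within its group was 0.117, against 0.14 over all features.

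The common level was followed as the median of the 43 genes on each array. In roots it was 7.22, 7.16 and 7.22 in rpt2-3a under deficiency and 7.27, 7.17 and 7.09 in rpt2-3a at normal sulfur. Col-0 roots read 7.37, 7.29 and 7.22 under deficiency and 7.23, 6.88 and 7.14 at normal sulfur. The root groups overlapped, those of deficient rpt2-3a and deficient Col-0 only at 7.22, and the lowest root array was Col-0 at normal sulfur, replicate 2. In rosettes it was 7.15, 7.11 and 7.07 in rpt2-3a under deficiency and 6.94, 6.78 and 7.08 in rpt2-3a at normal sulfur. Col-0 rosettes read 6.85, 6.89 and 6.65 under deficiency and 7.10, 6.98 and 6.85 at normal sulfur. All 3 deficient rpt2-3a rosettes lay above all 3 deficient Col-0 rosettes, while the other rosette groups that differed in genotype or supply alone overlapped. With 3 arrays against 3 an exact permutation test cannot go under p = 0.1, and none was made. The median of 93 large-subunit genes did not separate these groups. It was 5.99, 6.15 and 6.15 in deficient rpt2-3a rosettes and 6.06, 5.81 and 5.97 in deficient Col-0 rosettes. That of 14 other small-subunit genes overlapped as well. Taken gene by gene, however, the median change between these groups was 0.16 in the 43 genes and 0.16 in the large-subunit genes. It was 0.19 in the other small-subunit genes. Between arrays of a group the median of the 43 genes had an SD of 0.114. The lowest of all 24 values, 6.65, came from deficient Col-0 rosette replicate 3, which also had the lowest median over all features, 4.03. Fewer cells with active ribosome synthesis and less ribosomal protein mRNA in each cell cannot be told apart in RNA from whole organs.

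**Figure D1:**
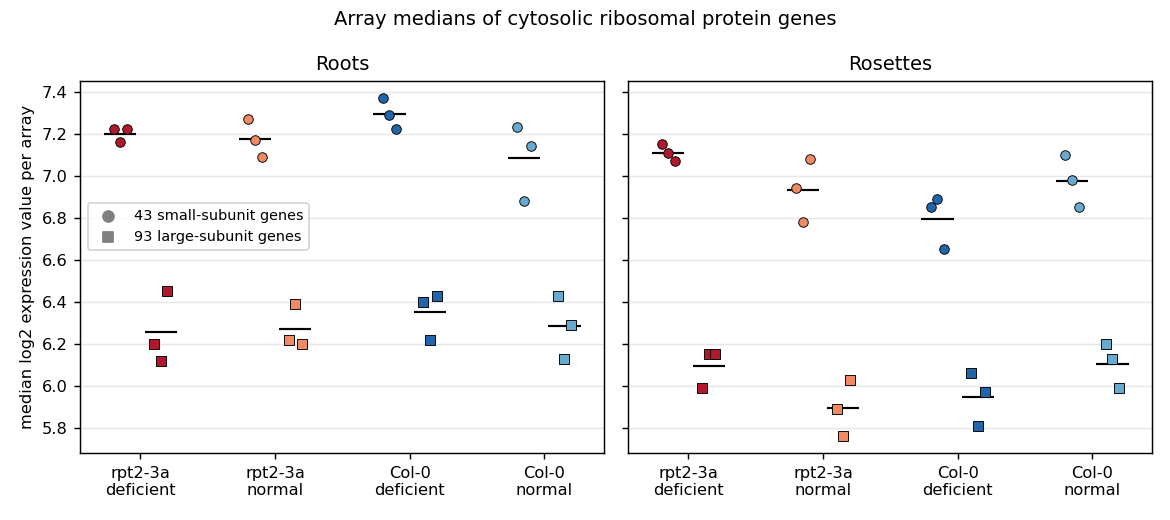
Median log2 expression value of the 43 small-subunit genes (circles) and of 93 large-subunit genes (squares) on each of the 24 arrays, roots left and rosettes right, with a line at each group's mean (n = 3). In rosettes the small-subunit medians of deficient rpt2-3a lie between 7.07 and 7.15, above those of deficient Col-0, between 6.65 and 6.89. The large-subunit medians of these groups overlap, although the median change taken gene by gene was 0.16 in both sets of genes.

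Roots were set against rosettes at normal sulfur, with limma over all 24 arrays and Benjamini-Hochberg adjustment over all features. A set of 8 small-subunit genes, each from a different family, was higher in roots than in rosettes by 0.79 to 2.26 in both genotypes, AT5G07090 of the S4 family was lower in both, and the shift common to the 43 genes depended on how the arrays were scaled. In rpt2-3a, 24 of 43 genes were higher and 2 lower at an adjusted p under 0.05, where 42.7% of all features were higher and 19.8% lower. In Col-0, 21 were higher and 3 lower, where 43.3% of all features were higher and 20.1% lower. The member median was 0.29 in rpt2-3a and 0.24 in Col-0, against 0.20 and 0.21 over all features. The common direction turned with the scaling: with each array centred on its median the counts were 10 higher and 15 lower in rpt2-3a and 8 higher and 16 lower in Col-0, and after quantile normalization 16 higher and 5 lower in rpt2-3a and 15 higher and 6 lower in Col-0. A gene is therefore called below only where it passed in the same direction under all 3 scalings. In rpt2-3a 10 genes were higher in this sense, against 25.3% of all features, and 2 lower, against 19.7%. In Col-0 8 were higher, against 26.8% of all features, and 3 lower, against 20%. The 8 higher genes and 1 lower gene called in both genotypes stood against 22.9% of all features called higher in both and 17.1% called lower in both. In each of the counts under all 3 scalings the members' share lay under that of all features, so the calls are read gene by gene and not as a property of the family. On the deposited scale alone the share called higher lay above that of all features in both genotypes.

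Proteins that line the mRNA entry channel supplied 2 of the 8. AT5G39850 of the S9 family (uS4), which sits at the channel's entrance, read 5.10, 5.46 and 5.37 in rpt2-3a roots, against 3.75, 3.61 and 3.95 in rpt2-3a rosettes. In Col-0 it read 5.07, 5.00 and 5.13 in roots, against 3.53, 3.65 and 3.81 in rosettes. No root array reached the rosette range, and the differences were 1.54 ± 0.12 in rpt2-3a and 1.40 ± 0.12 in Col-0 (SE; limma adjusted p = 1.5e-10 and 7.4e-10). The gene was dim in rosettes, under the array median on 10 of 12 rosette arrays. Its paralog AT5G15200 differed by 0.25 in rpt2-3a and 0.50 in Col-0 and was not called under all scalings. AT2G41840 of the S2 family (uS5) was higher by 0.87 ± 0.10 in rpt2-3a and 0.99 ± 0.10 in Col-0 (adjusted p = 1.3e-07 and 1.7e-08), and over 12 arrays each its roots ran from 8.99 to 9.44 and its rosettes from 8.09 to 8.40. The other S2 genes, AT3G57490 and AT1G58380, had 0.43 and 0.36 in rpt2-3a and 0.56 and 0.48 in Col-0, and neither held under all scalings.

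The S3 protein (uS3) also lies at the entry channel, and values of both signs were found among its 3 genes. AT3G53870 was lower in Col-0 roots by −0.40 ± 0.12 (adjusted p = 0.0062) and had −0.11 in rpt2-3a, while AT5G35530 had 0.44 in rpt2-3a and 0.37 in Col-0, and AT2G31610 had 0.09 and 0.13. The Col-0 call of AT3G53870 missed the threshold in 1 of 15 fits (adjusted p = 0.053).

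The head of the subunit carries the contacts to the P-site tRNA, and 2 of its genes were called in both genotypes. AT3G04230 of the S16 family (uS9), whose protein family reaches the P-site tRNA with its tail, had the largest difference of all 43. It read 4.17, 4.40 and 4.42 in rpt2-3a roots, against 2.44, 1.80 and 1.97 in rpt2-3a rosettes. In Col-0 it read 4.20, 4.42 and 4.12 in roots, against 2.25, 1.90 and 2.13 in rosettes. All 12 rosette arrays lay under the array median and all 12 root arrays lay higher, 9 of them still under the array median. The difference was 2.26 ± 0.19 in rpt2-3a and 2.15 ± 0.19 in Col-0 (limma adjusted p = 2.3e-10 and 5.1e-10). No measure of background was used here, so rosette values this low may be at the floor of the array, and the differences are then lower bounds. Its paralog AT5G18380 had 0.69 in rpt2-3a, 0.43 without normal rosette replicate 2, and 0.28 in Col-0. AT2G09990, under the array median on every array, had 0.51 in rpt2-3a, 0.34 without normal rosette replicate 2 (adjusted p = 0.12), and 0.01 in Col-0.

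AT5G15520 of the S19 family (eS19), a head protein whose human counterpart is needed for maturation of the small subunit and is mutated in Diamond-Blackfan anaemia, was the other. It was higher by 1.14 ± 0.13 in rpt2-3a and 1.21 ± 0.13 in Col-0 (adjusted p = 4.2e-08 and 1.5e-08), with roots between 4.98 and 5.44 and rosettes between 3.83 and 4.38. Its paralogs AT3G02080 and AT5G61170 had 0.29 and 0.25 in rpt2-3a and 0.37 and 0.12 in Col-0. In the S15 family (uS19), also in the head, AT5G09510 was lower in rpt2-3a roots by −0.44 ± 0.12 (adjusted p = 0.0028) and had −0.11 in Col-0, and AT5G09490 and AT5G09500, both under the array median, stayed between −0.11 and −0.02 in both genotypes.

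Of the other head families none was called under all scalings. In the S17 family (eS17) AT5G04800 had 0.49 in rpt2-3a and 0.58 in Col-0, AT3G10610 0.29 and 0.46, AT2G05220 0.19 and 0.24 and AT2G04390 0.11 and 0.10. In the S12 family (eS12), a protein of the beak, AT2G32060 had 0.68 in rpt2-3a and 0.59 in Col-0 and AT1G15930 0.62 and 0.20. The S10 genes (eS10) AT4G25740 and AT5G52650 lay below 0 in both genotypes, between −0.17 and −0.05, and AT3G47370 of the S20 family (uS10) had 0.45 in rpt2-3a and 0.26 in Col-0.

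Body and platform genes supplied the remaining 4 higher genes and the lower one. AT3G52580 of the S14 family (uS11), which lies on the platform near the mRNA exit, read 5.98, 5.71 and 5.51 in rpt2-3a roots against 4.93, 4.32 and 4.48 in rpt2-3a rosettes, and 5.68, 5.51 and 5.67 in Col-0 roots against 4.58, 4.57 and 4.51 in Col-0 rosettes. The difference was 1.16 ± 0.14 in rpt2-3a and 1.07 ± 0.14 in Col-0 (adjusted p = 2.2e-07 and 7.5e-07). Its paralogs split: AT2G36160 was higher in rpt2-3a roots by 0.85 ± 0.13 (adjusted p = 5.3e-06) and had 0.61 in Col-0, where it was not called under all scalings, while AT3G11510 was lower in Col-0 roots by −0.56 ± 0.10 (adjusted p = 5.7e-05) and had −0.06 in rpt2-3a.

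The S4 family (eS4), a protein of the body, held both directions in both genotypes. AT5G58420 read 8.20, 8.18 and 8.30 in rpt2-3a roots against 7.48, 7.08 and 7.24 in rpt2-3a rosettes, a difference of 0.96 ± 0.13 (adjusted p = 7.4e-07), and had 0.80 ± 0.13 in Col-0 (adjusted p = 1e-05). AT5G07090 read 4.41, 4.08 and 4.44 in rpt2-3a roots against 4.62, 4.63 and 5.31 in rpt2-3a rosettes, a difference of −0.54 ± 0.18 (adjusted p = 0.011), and had −0.64 ± 0.18 in Col-0 (adjusted p = 0.0034). Unlike the 8 higher genes, it did not pass in every fit, but in 12 of 15 fits in rpt2-3a and 14 of 15 in Col-0. In rpt2-3a 1 array carried much of the size: the difference was −0.31 without normal rosette replicate 3 (adjusted p = 0.12), and it was −0.43 without normal root replicate 2 (adjusted p = 0.067). The third gene, AT2G17360, had 0.56 in rpt2-3a, 0.34 without normal rosette replicate 2, and 0.13 in Col-0.

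AT4G34670 of the S3a family (eS1), a platform protein, was higher by 0.82 ± 0.09 in rpt2-3a and 0.79 ± 0.09 in Col-0 (adjusted p = 5.4e-08 and 1e-07), while its paralog AT3G04840 had 0.03 and −0.04. AT5G27700 of the S21 family (eS21) was higher by 0.83 ± 0.11 in rpt2-3a and 0.82 ± 0.11 in Col-0 (adjusted p = 5.7e-07 and 7.1e-07), while AT3G53890 had 0.14 and 0.01. In the S8 family (eS8) AT5G59240, under the array median on every array, was higher in rpt2-3a roots by 0.77 ± 0.15 (adjusted p = 6.3e-05) and had 0.71 in Col-0, and AT5G20290 had 0.34 and 0.26. The S7 genes (eS7) AT1G48830, AT3G02560 and AT5G16130 stayed between −0.01 and 0.23 in both genotypes, AT3G60770 of the S13 family (uS15) had 0.07 in rpt2-3a and 0.12 in Col-0, and AT4G30800 of the S11 family (uS17) had 0.26 and −0.37.

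**Figure D2:**
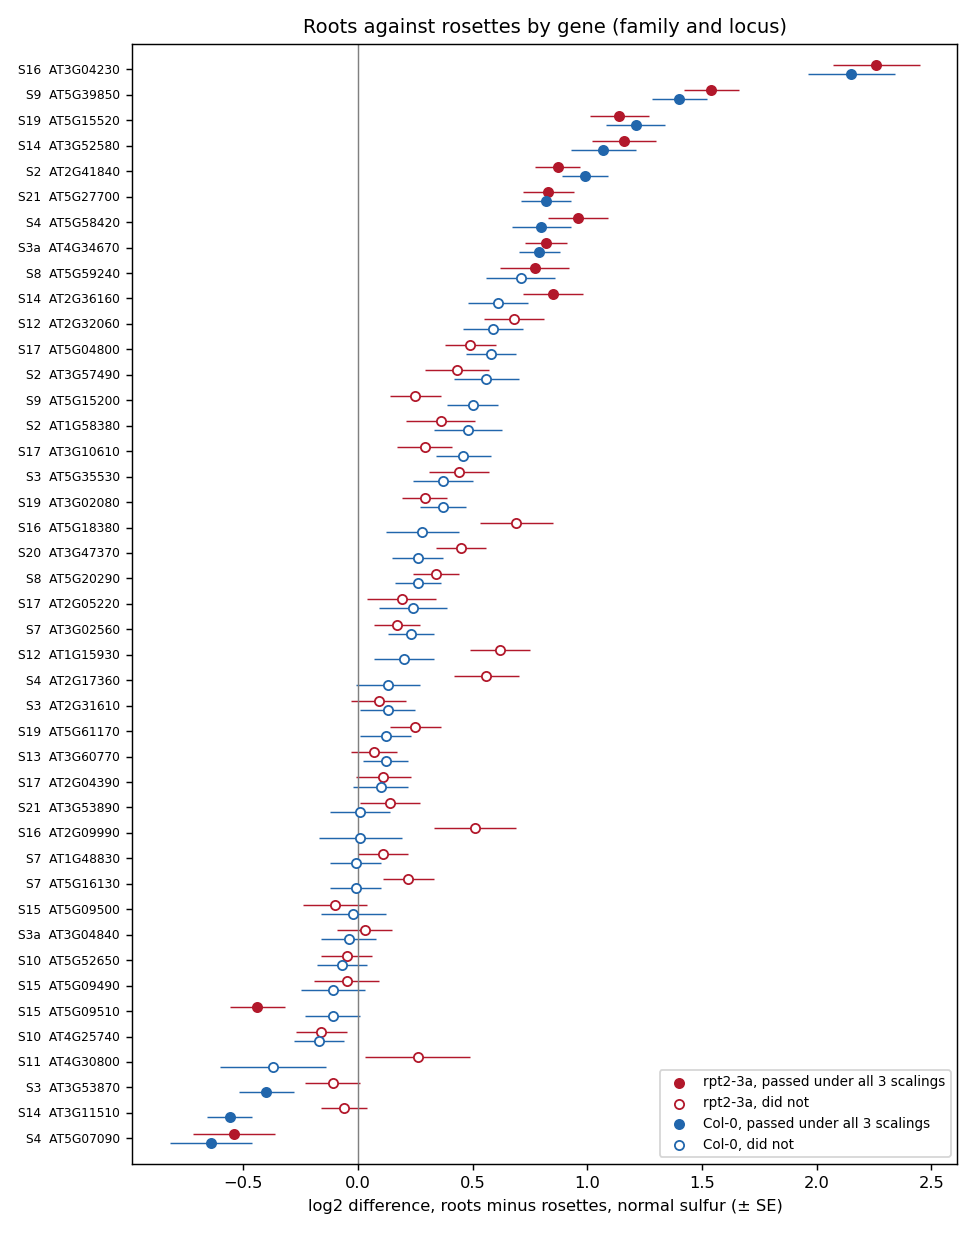
Log2 difference of roots minus rosettes at normal sulfur (± SE, n = 3 arrays a group) for the 43 small-subunit genes, rpt2-3a in red and Col-0 in blue, with filled points where the gene passed under all 3 scalings. AT3G04230 of the S16 family stands highest, at 2.26 and 2.15, and AT5G07090 of the S4 family lowest, at −0.54 and −0.64.

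The 8 genes higher in both genotypes passed in all of the fits made for them in both comparisons, including those that left out an array. The 3 scalings by which they were chosen are among these fits, so part of this was fixed by the choice. AT3G04230 was left out by the dim-feature filter and had 14 fits in each genotype, where the others had 15. A call in 1 genotype only does not show that the genotypes differ, and the difference of genotype effects between organs at normal sulfur passed for 0 of 43 genes, where 1.32% of all features passed (3 genes, against 12.2% of all features, had an unadjusted p under 0.05). Over all supplies and genotypes, the 12 root arrays lay entirely above the 12 rosette arrays for 11 of 43 genes, where 30.9% of all features did so, and entirely below for 0, where 14.1% did so. These shares describe the deposited scale.

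Differences between 2 genes of a family on the same array do not depend on the centring of the array. Among 36 such pairs in 15 families, 12 pairs in 8 families had root arrays and rosette arrays without overlap. This was 33.3% of the pairs, where 50.6% of all pairs of features did so, and the values that follow describe single pairs. AT3G04230 minus AT2G09990 ran from 0.90 to 2.29 on root arrays and from −0.83 to 0.19 on rosette arrays. On rosette arrays AT3G04230 read 1.76 to 2.55 and AT2G09990 1.77 to 2.73, so both may be at the floor there. AT5G58420 minus AT5G07090 ran from 3.36 to 4.32 on root arrays and from 1.78 to 2.86 on rosette arrays. AT3G52580 minus AT3G11510 ran from −1.87 to −1.47 in roots and from −3.26 to −2.59 in rosettes. AT4G34670 minus AT3G04840 ran from −0.42 to 0.14 in roots and from −1.14 to −0.70 in rosettes. All pairs of the S2, S7, S8, S10, S12, S15 and S17 families overlapped between organs. Only the change of such a difference between organs can be read, because the paralogs were measured by different probes.

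**Figure D3:**
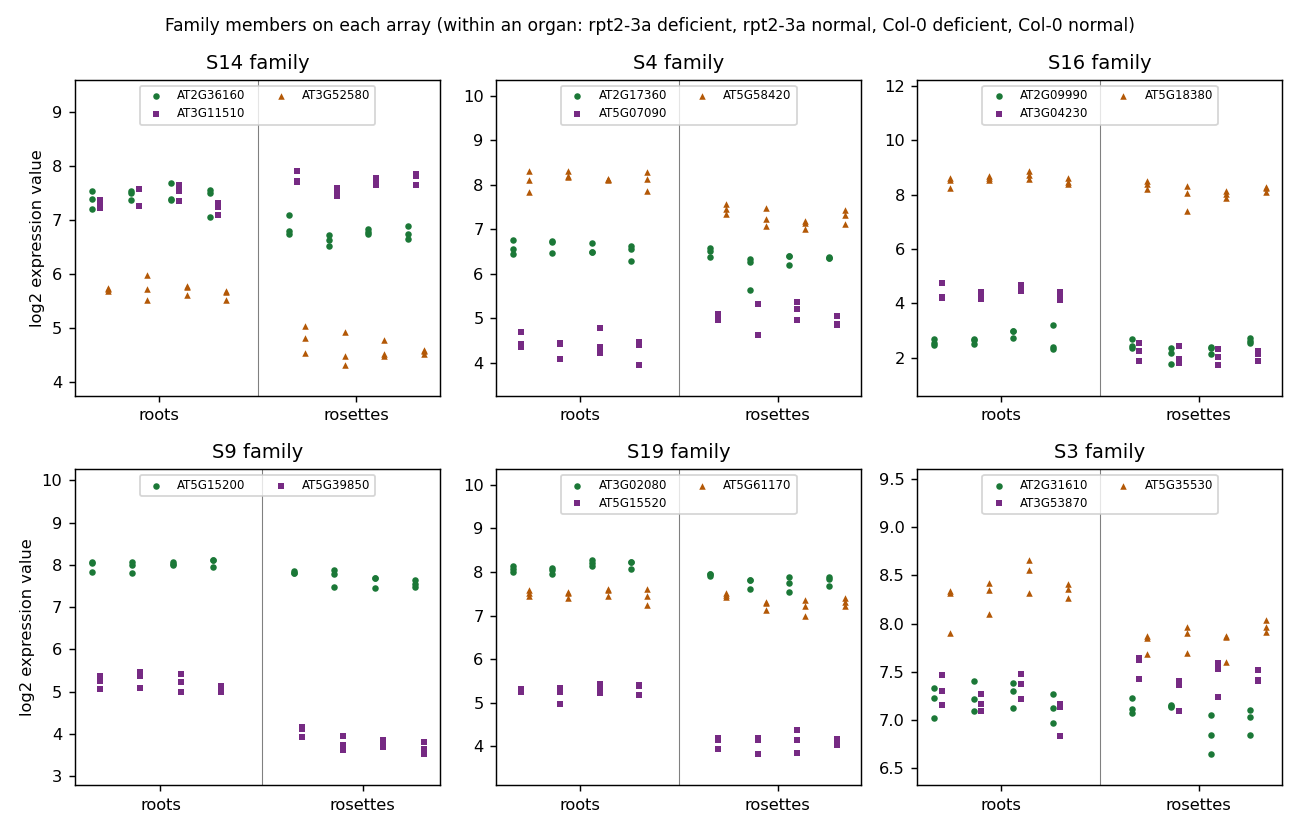
Log2 expression values of each measured gene of the S14, S4, S16, S9, S19 and S3 families on each array, roots left and rosettes right of the line, with the 4 conditions of an organ in the order given in the title. Within a family some genes lie higher in roots than in rosettes, such as AT3G52580, AT5G58420, AT3G04230, AT5G39850 and AT5G15520, while AT5G07090 was lower in roots at normal sulfur.

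Dividing cells make many ribosomes, and their marker AUR1 was higher in roots at normal sulfur by 1.54 ± 0.16 in rpt2-3a and 1.38 ± 0.16 in Col-0 (SE; limma adjusted p = 7.7e-09 and 4.7e-08). Of 20 genes of dividing cells 2 were measured: AUR1, a mitotic kinase, read 6.46 to 6.87 in roots and 4.62 to 5.54 in rosettes, and its paralog AUR2 read 4.16 to 4.46 in roots and 3.85 to 4.22 in rosettes. AUR2 was higher in rpt2-3a roots by 0.42 ± 0.10 (adjusted p = 0.00076) and had 0.22 ± 0.10 in Col-0 (adjusted p = 0.064). The part of dividing cells in the differences above was not tested.

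Within rosettes, the question was how 5 days of sulfur deficiency and the rpt2-3a mutation act on these genes. No member passed in any of the comparisons within rosettes, and the medians over the 43 genes lay between −0.08 and 0.20. For deficient against normal rpt2-3a rosettes 34 of 43 genes had a change above 0, with a median of 0.13 (quartiles 0.02 and 0.27), against a median of 0 and 49.6% of features above 0 over the whole array. At an adjusted p under 0.05, 0 members passed, where 1.55% of features did, and 12 members, all higher, had an unadjusted p under 0.05, where 13% of features did in either direction. For deficient against normal Col-0 rosettes 10 of 43 genes were above 0 and the median was −0.08, against 44% above 0 and a median of −0.02 over all features. There 0 members passed, where 0.129% of features did, and 0 had an unadjusted p under 0.05, where 8.45% did.

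The difference of the 2 sulfur responses, rpt2-3a minus Col-0, was above 0 for 38 of 43 rosette genes, with a median of 0.20 against 0.03 over all features. None passed, where 0% of features did, and 6 members, all higher, had an unadjusted p under 0.05, where 9.27% of features did. The rosette comparisons share arrays, and the 43 genes share every array, so neither the medians nor the counts above 0 are separate observations. The spread of a shift common to the genes was taken from the median, on each array, of the members' deviations from their means in the organ, which had an SD of 0.0703 between rosette arrays of a group and 0.072 between root arrays. By this measure the rpt2-3a rosette response was 0.14 ± 0.06, the Col-0 rosette response −0.05 ± 0.06 and the difference of responses 0.19 ± 0.08 (SE, n = 3 arrays a group). Without single arrays the median of this difference ran from 0.15 to 0.25, that of the rpt2-3a response from 0.09, without rpt2-3a normal replicate 2, to 0.15, and that of the Col-0 response from −0.12 to −0.03, without Col-0 deficient replicate 1 and Col-0 normal replicate 1.

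Between genotypes in rosettes under deficiency, rpt2-3a minus Col-0 was above 0 for 36 of 43 genes, with a median of 0.16 against 0.02 over all features. None passed, where 0.322% of features did, and 9 members, all higher, had an unadjusted p under 0.05, where 10.4% of features did. By the measure of the common shift the difference was 0.14 ± 0.06 (SE). The median was 0.10 without deficient Col-0 replicate 2 and 0.20 without deficient Col-0 replicate 1. At normal sulfur the median was −0.04 with 15 of 43 above 0. None passed there, where 2.01% of features did, and 3 members, all lower, had an unadjusted p under 0.05, where 14.3% of features did. That median was −0.08 without Col-0 normal replicate 3 and 0 without Col-0 normal replicate 1. The common shift at normal sulfur was −0.06 ± 0.06 (SE).

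Both structural parts of the subunit gave medians above 0 in this contrast. Under deficiency, rpt2-3a minus Col-0 in rosettes was above 0 for 20 of 21 head genes, with a median of 0.19. It was above 0 for 16 of 22 body and platform genes, with a median of 0.10. Over all features 55.6% were above 0, with a median of 0.02. The genes share the same arrays, and the 2 parts were not tested against each other.

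**Figure D4:**
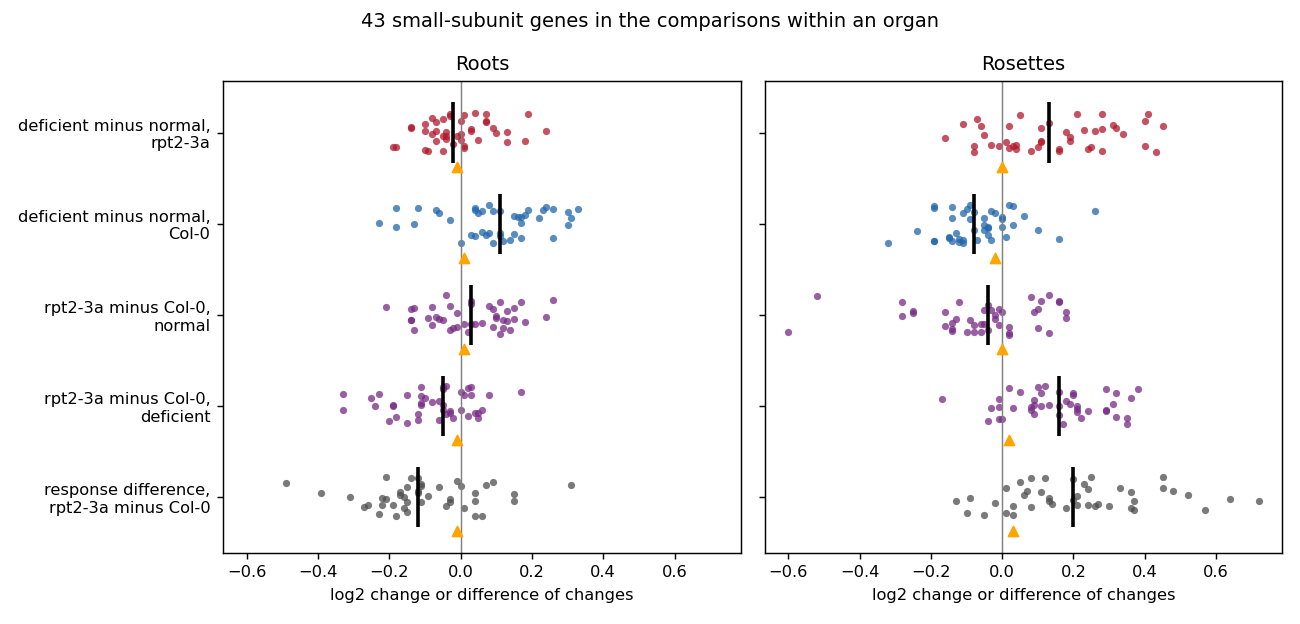
Log2 change of each of the 43 small-subunit genes (points) in the comparisons within roots (left) and rosettes (right), with the member median as a black bar and the median of all 28583 features as an orange triangle. The member medians lie between −0.12 and 0.11 in roots and between −0.08 and 0.20 in rosettes, and no single point passed the test.

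The single genes with the smallest p-values within an organ are described next. Because they were picked by p-value, their changes can overstate the true size and do not show the typical change of a member. The medians over all members in the same comparisons were smaller in size. AT3G53890 of the S21 family (eS21), a platform protein, read 7.45, 7.30 and 7.41 in deficient rpt2-3a rosettes and 7.15, 6.72 and 7.08 in normal rpt2-3a rosettes, which did not overlap. Col-0 rosettes read 7.18, 6.98 and 6.86 under deficiency and 7.20, 7.14 and 7.04 at normal sulfur. Its sulfur response was 0.40 ± 0.13 in rpt2-3a (SE; 95% interval 0.13 to 0.68; limma adjusted p = 0.16) and −0.12 ± 0.13 in Col-0, and the difference of the responses was 0.52 ± 0.18 (adjusted p = 0.39). The other S21 gene, AT5G27700, read 8.59, 8.45 and 8.43 in deficient rpt2-3a rosettes and 8.33, 8.16 and 8.11 in deficient Col-0 rosettes, a difference of 0.29 ± 0.10 (interval 0.07 to 0.51; adjusted p = 0.31). The 2 groups did not overlap. At normal sulfur the difference between genotypes was −0.04 ± 0.10. In genes picked by their p-values, groups without overlap are no separate evidence, here or below. The share of all features without overlap was not counted for these comparisons.

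AT3G47370 of the S20 family (uS10), in the head, read 7.12, 6.99 and 6.81 in deficient rpt2-3a rosettes and 6.73, 6.66 and 6.49 in deficient Col-0 rosettes. The groups did not overlap, and the difference was 0.35 ± 0.12 (interval 0.09 to 0.60; limma adjusted p = 0.31). AT5G58420 (S4) read 7.45, 7.56 and 7.35 in deficient rpt2-3a rosettes and 7.18, 7.14 and 7.00 in deficient Col-0 rosettes, again apart, with 0.35 ± 0.12 (interval 0.08 to 0.61; adjusted p = 0.33). AT5G39850 (S9) read 4.12, 4.17 and 3.94 in deficient rpt2-3a rosettes and 3.85, 3.74 and 3.69 in deficient Col-0 rosettes, apart as well, with 0.32 ± 0.12 (interval 0.06 to 0.57; adjusted p = 0.35). In roots the same contrast gave −0.04 for AT3G47370, −0.04 for AT5G58420 and 0.02 for AT5G39850. The last 2 genes are also among those higher in roots than in rosettes in both genotypes.

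A further 2 genes, both under the array median on every array, were described at normal sulfur, and neither passed. AT2G09990 of the S16 family read 2.37, 1.77 and 2.18 in normal rpt2-3a rosettes and 2.54, 2.73 and 2.62 in normal Col-0 rosettes, a difference of −0.52 ± 0.15 (interval −0.85 to −0.20; limma adjusted p = 0.10), with no overlap. Under deficiency it read 2.44, 2.71 and 2.38 in rpt2-3a and 2.15, 2.41 and 2.38 in Col-0, a difference of 0.20 ± 0.15. Its difference of sulfur responses, 0.72 ± 0.21, was the largest among the members in rosettes (adjusted p = 0.32). AT4G30800 of the S11 family (uS17) read 2.46, 2.86 and 3.27 in normal rpt2-3a rosettes and 3.66, 3.79 and 2.94 in normal Col-0 rosettes, which overlap through Col-0 replicate 3. Its difference was −0.60 ± 0.22 (interval −1.07 to −0.13; adjusted p = 0.21), and without that array it was −0.86 with an adjusted p of 0.049.

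In roots no member passed either, and the medians lay between −0.12 and 0.11. For deficient against normal Col-0 roots 35 of 43 genes had a change above 0, with a median of 0.11 against 0.01 over all features; 0 passed, where 0.875% of features did, and 4 members, all higher, had an unadjusted p under 0.05, where 9.41% of features did. The median was 0.05 without normal Col-0 replicate 2, the lowest root array, and 0.15 without normal Col-0 replicate 1. In rpt2-3a roots the median was −0.02 with 19 of 43 above 0; 0 passed, where 0.143% of features did, and 0 had an unadjusted p under 0.05, where 8.74% did. The difference of the responses, rpt2-3a minus Col-0, was above 0 for 10 of 43 genes with a median of −0.12. None passed, where 0.0105% of features did, and 2 members, both lower, had an unadjusted p under 0.05, where 5.45% did. This median was −0.06 without normal Col-0 replicate 2. By the measure of the common shift the Col-0 root response was 0.10 ± 0.06 and the rpt2-3a root response −0.02 ± 0.06. The difference of these responses was −0.12 ± 0.08 (SE).

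Between genotypes in roots, the medians were −0.05 under deficiency, with 11 of 43 above 0, and 0.03 at normal sulfur, with 25 of 43 above 0. Under deficiency 0 passed, where 0.77% of features did, and 2 members, both lower, had an unadjusted p under 0.05, where 10.8% did. At normal sulfur 0 passed, where 0.577% did, and 1 member had an unadjusted p under 0.05, where 9.23% did. Without normal Col-0 replicate 2 the median at normal sulfur was −0.03, and without deficient Col-0 replicate 2 that under deficiency was −0.10. The common shift between genotypes was −0.08 ± 0.06 under deficiency and 0.04 ± 0.06 at normal sulfur (SE).

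AT3G11510 of the S14 family had the smallest p among the root comparisons. It read 7.21, 7.26 and 7.36 in deficient rpt2-3a roots and 7.56, 7.56 and 7.26 in normal rpt2-3a roots. Col-0 roots read 7.64, 7.35 and 7.53 under deficiency and 7.23, 7.08 and 7.30 at normal sulfur, where the groups did not overlap. Its sulfur response was −0.18 ± 0.12 in rpt2-3a and 0.30 ± 0.12 in Col-0 (limma adjusted p = 0.73 and 0.41), and the difference of responses was −0.49 ± 0.17 (interval −0.84 to −0.13; adjusted p = 0.84). In rosettes that difference was 0.30 ± 0.14.

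The precision of these comparisons sets what could be seen. The median SE of a member's change was 0.12, and the 95% interval lay within ±0.5 for 39 of 43 genes in the rpt2-3a root response, 32 in the Col-0 root response, 29 in the rpt2-3a rosette response and 38 in the Col-0 rosette response. For the differences of responses, with a median SE of 0.18 in roots and 0.17 in rosettes, it did so for 17 and 18 genes. In simulated data for the rpt2-3a rosette response, 66.7% of features changed by 1 on the log2 scale were recovered, 17.9% of those changed by 0.5 and 0% of those changed by 0.25. These features were drawn from all features, whose median SD was 0.14, against 0.117 in the members. Only 200 were changed, whereas 444 features passed in the real comparison. The rates are therefore not those of the 43 genes. In that response the member median, 0.13, was close to the median SE of a single gene, 0.12.

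The responses of the 2 organs were compared directly over all 24 arrays. For the genotype difference under deficiency, roots minus rosettes, 39 of 43 genes lay below 0, with a median of −0.20 against −0.03 over all features; 0 passed, where 0.465% of features did, and 12 members, all lower, had an unadjusted p under 0.05, where 9.62% did. AT5G18380 of the S16 family had the lowest value, −0.61, and the smallest adjusted p of any member was 0.16. For the rpt2-3a sulfur response 32 of 43 lay below 0, with a median of −0.13. None passed, where 0.399% of features did, and 6 had an unadjusted p under 0.05, where 11% did. For the Col-0 sulfur response 34 of 43 lay above 0, with a median of 0.18; 0 passed, where 0.469% did, and 4 had an unadjusted p under 0.05, where 8.79% did. These comparisons reuse the arrays of those within organs.

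The other cytosolic ribosomal proteins gave medians of the same sign as the small-subunit genes in the rosette comparisons that follow. Of 139 large-subunit loci 93 were measured, and their median change was 0.13 for the rpt2-3a rosette response, 0.16 for rpt2-3a against Col-0 rosettes under deficiency and 0.20 for the difference of responses in rosettes, with 81, 76 and 80 of 93 above 0. In Col-0 their medians were −0.06 in rosettes and 0.07 in roots. In the comparisons within an organ 0 of 93 passed. A further 14 of 34 other small-subunit loci gave medians of 0.04, 0.19 and 0.17 for the same rosette comparisons, with 0 passing. Ribosome biogenesis genes, of which 12 of 37 were measured, gave −0.01, 0.07 and 0.01, with 0 passing. Whether these lists differ was not tested.

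Of 21 translation factor loci only EIF4A-2, an RNA helicase of translation initiation, and AT2G40290 were measured, and of 5 loci of the TOR pathway only RAPTOR1, the TOR partner that binds its substrates. RAPTOR1 had −0.18 in the rpt2-3a rosette response and −0.33 in that of Col-0, and neither passed. Between organs 56 large-subunit genes were higher in roots of rpt2-3a and 41 in those of Col-0, with 3 lower in each, of 93, on the deposited scale, where 42.7% and 43.3% of all features were higher and 19.8% and 20.1% lower. Of the 2 measured plastid 30S genes, AT1G64510 was lower in rpt2-3a roots by −4.02 and AT3G13120 by −3.57. Of 10 marker genes of sulfur deficiency 3 were measured and 2 rose in Col-0 roots. BGLU28, a beta-glucosidase induced by sulfur starvation, rose there by 2.11 ± 0.28 (limma adjusted p = 0.0024), on the arrays on which 0 small-subunit genes passed, and had 0.56 ± 0.28 in rpt2-3a roots (adjusted p = 0.62). In rosettes, 0 of the 3 markers passed in either genotype, and BGLU28 had 0.13 ± 0.28 in rpt2-3a and 1.43 ± 0.28 in Col-0 (limma adjusted p = 0.90 and 0.078).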

How the data were processed

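The authors deposited 1 table of expression values, read here as log2. The processing notes of the submitters name Transcriptome Analysis Console. Its version, the normalization, log base and build were not stated in those notes or the labels. Base 2 is assumed. Total RNA was treated with DNase and labelled with the Affymetrix WT kit, per the labels' protocols. The platform annotation gave 16746 of 28583 features a single gene, 758 several and 11079 none; 16601 matched RefSeq (TAIR10.1) by gene identifier.

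All features were tested unfiltered with limma 3.58.1 in R 4.3.3, within each organ over 12 arrays (8 residual degrees of freedom) or over all 24 (16), two-sided, with Benjamini-Hochberg adjustment over all features and a threshold of 0.05. Errors are SE, and intervals are 95% from the same fit. Arrays give no counts, so their number limits precision. A simulation with 200 changed features tested the fit. The 43 genes are each named, and values per array are given for the 8 with the smallest p within an organ, as none passed, and for some genes called between organs. The genes, lists and comparisons were chosen with earlier results of these data known. Alternatives were 2 other normalizations, other variance models and samples, a dim-feature filter, a replicate block and leaving out each array. Promoter motifs and protein identities were planned but not used here, for want of sequences. Same-numbered arrays deviated together with a median r of 0.01 in roots and −0.01 in rosettes, so the numbers were not taken as pairs. The highest r of such a pair was 0.15 in roots and 0.24 in rosettes, against 0.14 in both organs for other pairs. A median near 0 cannot exclude a replicate effect on the 43 genes, and the SE of the common shift makes no allowance for it.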

Additional observations from a re-analysis of the deposited data

How the results depend on the processing

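Within organs and for the differences between organs, 0 members passed under every alternative tried, except that leaving out 1 array gave 0 to 1 for rpt2-3a against Col-0 rosettes at normal sulfur; the 1 came without Col-0 replicate 3. With the replicate block 0 members passed within organs, and 21 in each organ comparison, against 26 and 24 without it. Leaving out 1 array gave 21 to 26 members called between organs in rpt2-3a and 21 to 23 in Col-0. Median centring turned the median difference between organs to −0.15 in rpt2-3a and −0.13 in Col-0, and quantile normalization gave 0.09 and 0.08. Under median centring the difference in rpt2-3a was −0.08 for AT1G58380 (−0.05 after quantile normalization), −0.15 for AT3G02080 and AT3G10610, −0.10 for AT5G20290, −0.18 for AT5G61170 and 0 for AT3G57490. In Col-0 it was −0.15 for AT3G02560, −0.12 for AT3G47370, −0.11 for AT5G20290 and 0 for AT3G02080 and AT5G35530. This follows from the shift of all features by the centring, whose median went to −0.23 in rpt2-3a and −0.16 in Col-0. Of 58 single-gene results, centring left 31 as they were, quantile normalization 44, the fit of only the groups compared 52, the block 50, and the trended robust variance 57; adjusting over features with 1 gene, an alternative chosen after seeing the data, changed 0. Leaving out 1 array lost 35 calls and gained 1 among 354 such results. Dim members, under the array median, carry wider errors.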
